A study of Mus musculus with 6 samples.

Results

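The wounds compared here had received hydrogels carrying either Ndrg2-KO dendritic cells (DCs) or control DCs, and each of these conditions is 1 droplet library of single cells. Members are the cell barcodes of these libraries that held 300 or more genes, fewer than 100000 unique molecular identifiers (UMIs) and below 10% of UMIs from genes whose symbol starts with mt-. This left 7629 of the 35083 cells of the series, 5681 from the wound with Ndrg2-KO DCs and 1948 from the wound with control DCs. Another wound library, from blank hydrogels without cells, kept 3403 cells and is given beside them as a level without transplanted cells. The series holds 6 libraries, 3 of DC cultures and 3 of wounds, and asks how DCs edited to lack Ndrg2 change the wound they are placed on.

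Host animals were wild-type C57BL/6J mice of 6 weeks, female and male by the study's methods, with splinted full-thickness wounds of the dorsal skin that were explanted 10 days after wounding. By the paper, this tissue came from several mice per group. The wound of a condition below therefore means its library and not 1 wound of 1 animal. DCs had been grown from mouse bone marrow and were placed on the wound in a pullulan-collagen hydrogel. Ndrg2-KO DCs had been nucleofected with Cas9 protein and guide RNAs against Ndrg2. The labels call the control DCs untreated, while the study's methods give them the same nucleofection with non-targeting guides, and the files do not settle this. The series text speaks of circulating GFP+ cells from parabiosis, yet the wound libraries held 1 UMI of eGFP in all, in the wound with Ndrg2-KO DCs, and 0 of tdTomato. All 10 hashtag features of the wound files were at 0, so cells could not be assigned to mice, and transplanted and host cells cannot be told apart. As each condition is a single library, conditions were not tested against each other. All intervals below are exact 95% intervals that cover counting error only and say nothing of the spread between mice. Those of genes treat each UMI as independent and so leave out the spread between cells as well.

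Wound repair passes from an inflammatory phase, in which neutrophils and then monocytes enter the tissue, to a phase in which macrophages, fibroblasts and new vessels rebuild it. Neutrophils carry the S100a8 and S100a9 alarmins and release interleukin-1 and CXC chemokines that draw in more neutrophils. Macrophages can take an inflammatory state, with Nos2, Il1b and Tnf, or a state linked to repair and to tissue residence, with Mrc1, Cd163 and Retnla. Ptprc encodes CD45, the surface phosphatase that marks leukocytes, and cells with at least 1 Ptprc UMI are called immune cells below.

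The library with control DCs was the deepest per cell. Its cells had a median of 10795 UMIs, those with Ndrg2-KO DCs 4415 and those with blank hydrogel 5603. The kept cells held 29675507, 49240341 and 34905741 UMIs in the same order. Cells were therefore drawn at random to 1000 UMIs each before shares were computed, which left out 25, 95 and 65 shallower cells. Levels were computed as summed UMIs of a gene per 1000000 summed UMIs (CPM), and differences as the log2 ratio of CPM, Ndrg2-KO DCs over control DCs. The libraries with Ndrg2-KO and control DCs shared 2 barcodes. Y-linked Ddx3y had 0 UMIs in every wound library and Kdm5d 1 or 2, while the study's methods name mice of both sexes.

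Ndrg2 itself (ENSMUSG00000004558, chr14:51905271-51914158, GRCm38) does not check the label in wounds, since the host's cells carry the intact gene. It had 181 UMIs with control DCs, 164 with Ndrg2-KO DCs and 115 with blank hydrogel, which is 6.10, 3.33 and 3.29 CPM. Of these UMIs, 90.6% with control DCs and 86.6% with Ndrg2-KO DCs lay in fibroblast-like cells, whose share also differed between the wounds. Immune cells had 11, 36 and 12 UMIs of Ndrg2, and their log2 ratio of 0.36 had an interval from -0.64 to 1.49.

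The wound with Ndrg2-KO DCs held more neutrophil-like cells and fewer fibroblast-like cells than the wound with control DCs, and the blank hydrogel lay nearer to it than to control DCs in both. A cell was counted as neutrophil-like when it had UMIs of at least 3 of 8 neutrophil markers at 1000 UMIs, and the other types likewise from lists of 8 markers. Neutrophil-like cells made up 23.0% (21.1 to 24.9) of cells with control DCs, 48.1% (46.7 to 49.4) with Ndrg2-KO DCs and 41.9% (40.3 to 43.6) with blank hydrogel. Without any class, all 8 of their markers were higher with Ndrg2-KO than control DCs (median log2 ratio 1.48), and they summed to 8324, 26528 and 20664 CPM, most of it S100a8 and S100a9. The blank hydrogel did not keep 1 place among the markers. Csf3r, Cxcr2, Il1r2 and Mmp9 were higher there than with Ndrg2-KO DCs, and Retnlg, at 138 CPM, was lower than with control DCs, at 253 CPM. S100a8, a calcium-binding alarmin of neutrophils, had 3427 CPM with control DCs, 11144 CPM with Ndrg2-KO DCs and 8806 CPM with blank hydrogel. The type is a range rather than a sharp group, as 39 cells with control DCs and 505 with Ndrg2-KO DCs lay 1 marker short of it and 83 and 690 had exactly 3 markers.

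Fibroblast-like cells made up 26.1% (24.1 to 28.1) of cells with control DCs, 9.74% (8.97 to 10.5) with Ndrg2-KO DCs and 11.4% with blank hydrogel, and all 8 fibroblast markers were lower with Ndrg2-KO DCs (median log2 ratio -1.15). Macrophage-like cells made up 27.0% (25.1 to 29.1), 17.0% (16.0 to 18.0) and 21.6%. Their summed markers had the opposite order, with 2911 CPM with control DCs and 3450 CPM with Ndrg2-KO DCs, and 7 of 8 macrophage markers were higher, so no order of macrophages is read from the whole tissue. Vessel cells were few. Endothelial-like cells made up 0.832% (0.476 to 1.35) with control DCs and 0.215% (0.111 to 0.375) with Ndrg2-KO DCs, and 7 of 8 endothelial markers were lower, among them Cdh5, the cadherin of endothelial junctions, at 21.8 and 9.91 CPM. All 8 markers of mural cells, which wrap vessels, were lower (median log2 ratio -1.83).

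Cells of the DC type were scarce in every wound. By 3 of 8 markers there were 5 DC-like cells with control DCs, 8 with Ndrg2-KO DCs and 10 with blank hydrogel, which is 0.260% (0.0845 to 0.606), 0.143% (0.0618 to 0.282) and 0.300% (0.144 to 0.550). At these cell numbers no order of the wounds is read from the shares of DC-like cells. T cell-like cells made up 2.60% (1.94 to 3.41) with control DCs, 2.47% (2.08 to 2.91) with Ndrg2-KO DCs and 1.17% (0.832 to 1.59) with blank hydrogel, and monocyte-like cells 2.91%, 3.04% and 4.49%. Blood was also unequal. Haemoglobin genes took 0.148% of UMIs with control DCs, 0.868% with Ndrg2-KO DCs and 0.313% with blank hydrogel, and all 8 erythroid markers were higher with Ndrg2-KO DCs. The part of blood cells in the neutrophil share was not tested.

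**Figure D1:**
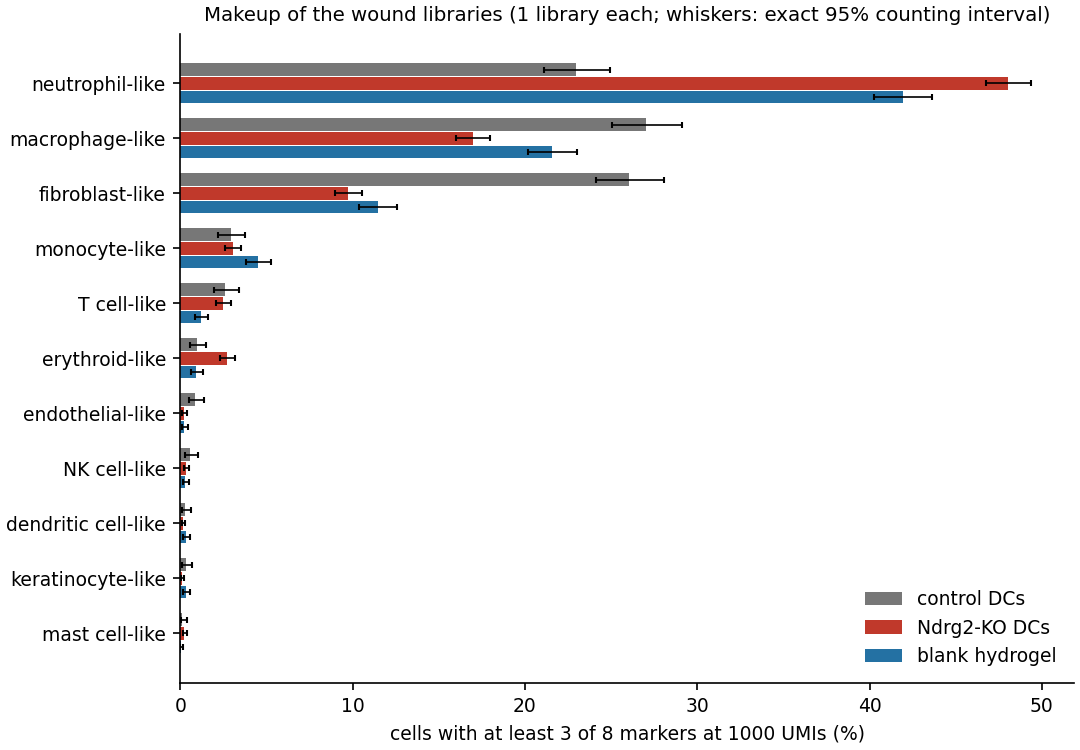
Share of cells (%) with at least 3 of 8 markers of a type after each cell was drawn to 1000 UMIs, for the wounds with control DCs (grey), Ndrg2-KO DCs (red) and blank hydrogel (blue), 1 library each. Bars start at 0 and whiskers are exact 95% counting intervals. The neutrophil-like bar of the wound with Ndrg2-KO DCs reaches 48.1% against 23.0% with control DCs, and the fibroblast-like bar 9.74% against 26.1%.

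Immune cells made up 61.7% of cells with control DCs (1202 cells), 72.9% with Ndrg2-KO DCs (4142 cells) and 74.7% with blank hydrogel (2542 cells). At 1000 UMIs a Ptprc UMI was found in 26.8%, 34.6% and 33.4% of cells. In fibroblast-like cells, which should lack it, the share at 1000 UMIs was 0.806%, 0.945% and 0.831%. Before drawing, as immune cells were counted, it was 4.23%, 12.1% and 12.2%, at median depths of 29743, 26592 and 28001 UMIs. Among immune cells that could be drawn to 1000 UMIs, each cell was then given to the list of which it held most markers. Neutrophil-like cells were 29.3% (26.7 to 31.9) of them with control DCs and 48.5% (47.0 to 50.1) with Ndrg2-KO DCs, and macrophage-like cells 37.4% (34.6 to 40.2) and 19.4% (18.2 to 20.7). Because macrophage-like cells are deeper, they held 52.6% of the immune UMIs with control DCs and 34.5% with Ndrg2-KO DCs, against 10.9% and 26.3% in neutrophil-like cells. A level over all immune cells can move with this makeup, so values within both classes are given beside it.

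Over the immune cells, 374 of 11767 genes with at least 50 UMIs in both sums together were at least 2-fold higher with Ndrg2-KO DCs (3.18%) and 270 were at least 2-fold lower (2.29%). The median log2 ratio over the 7811 genes with at least 100 UMIs in each sum was -0.18, so a gene at 0 lies slightly above the typical gene. With this median set to 0, 535 genes were at least 2-fold higher and 127 at least 2-fold lower. With the classes weighted by their share of UMIs in the wound with control DCs, an alternative added after the data were seen, 279 genes were higher and 198 lower, and 242 of the 279 and 160 of the 198 were among the 374 and 270.

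The lists that stood highest were those of neutrophils and of inflammation. Of 12 inflammatory cytokine and mediator genes, all 12 were higher with Ndrg2-KO DCs and 9 were at least 2-fold higher, at a median of 1.46 (log2 ratio) against -0.17 over all genes under the same minimum of 50 UMIs in 1 of the sums. Of 12 neutrophil activation genes, 12 were higher and 9 at least 2-fold, with a median of 1.43. Weighting the classes as in the wound with control DCs gave medians of 1.14 and 1.08. Of 12 interferon-stimulated genes, 10 were higher and 4 at least 2-fold, with a median of 0.65, and of 14 glycolysis and hypoxia genes, 13 were higher and 1 at least 2-fold, with a median of 0.57. The lowest median was that of mature DC genes, at -0.60 with 7 of 8 lower, but it was 0.02 without the 5 cells with most UMIs of each gene. T and NK effector genes had a median of -0.44, and growth factors, alternative activation and resident-type macrophage genes each one of -0.41. Of the genes of antigen presentation by MHC class II, 8 of 8 were lower, at a median of -0.35. With the classes weighted, the medians became 0.08 for resident-type macrophage genes, -0.06 for growth factors, -0.16 for both alternative activation and MHC class II genes, and -0.55 for T and NK effector genes. The share of genes at least 2-fold higher under that minimum was 3.11% of all genes and at least 2-fold lower 1.58%. A low gene passes the minimum more easily through the deeper sum of the wound with Ndrg2-KO DCs, so the counts describe the lists and carry no test.

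**Figure D2:**
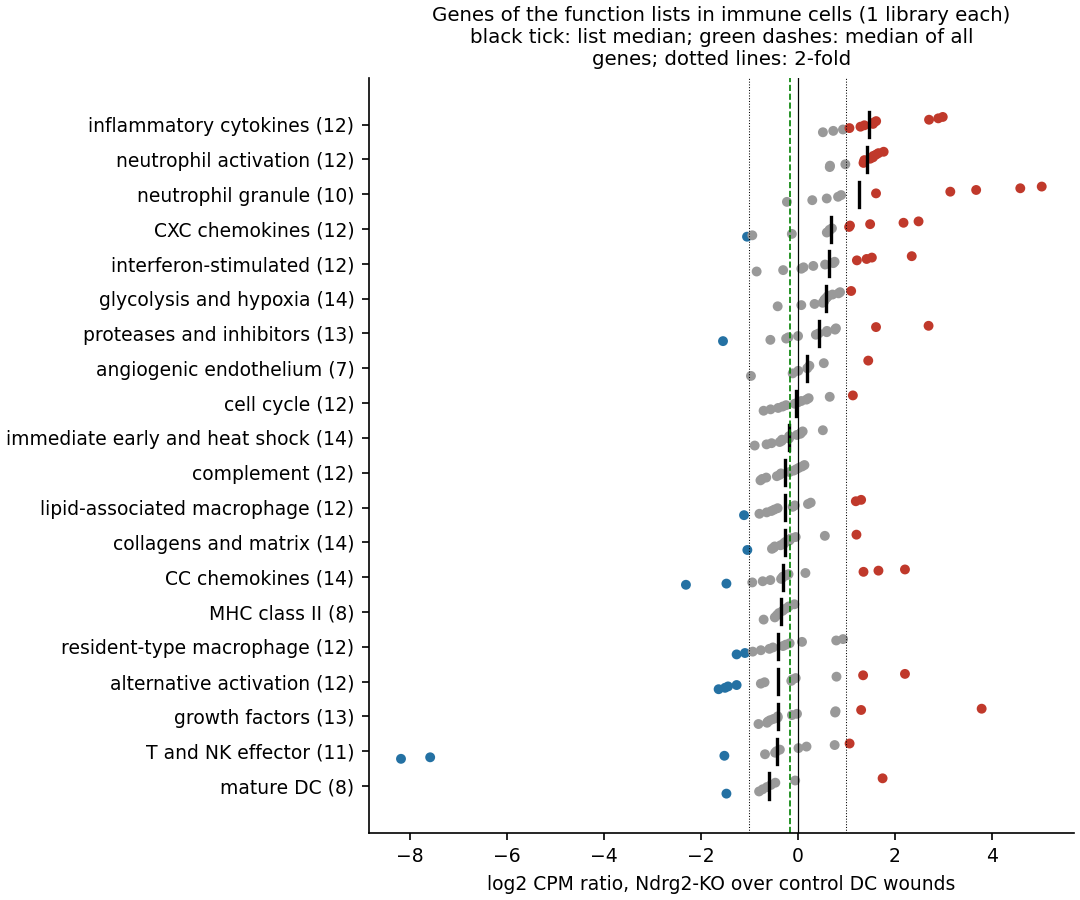
Each point is 1 gene of a function list in immune cells, at its log2 CPM ratio of Ndrg2-KO over control DC wounds on the horizontal axis, with the number of measured genes after the list name. Red and blue points lie at least 2-fold higher or lower, black ticks are list medians and the green dashed line is the median of all genes, -0.17. Inflammatory cytokines (median 1.46) and neutrophil activation (1.43) stand at the top. Mature DC genes (-0.60) stand at the bottom, at a median of 0.02 without the 5 cells with most UMIs of each gene.

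Interleukin-1 alpha, an alarm cytokine released by damaged and activated cells, was higher in the wound with Ndrg2-KO DCs than in both others. Its gene Il1a (chr2:129299610-129309972, GRCm38) had 91.8 CPM with control DCs, 601 CPM with Ndrg2-KO DCs and 152 CPM with blank hydrogel, a log2 ratio of 2.71 (2.63 to 2.80). Unlike the neutrophil share, the level with blank hydrogel lay nearer to control DCs. The difference was also present within classes, at 488 and 1226 CPM in neutrophil-like cells and 39.8 and 143 CPM in macrophage-like cells, which are log2 ratios of 1.33 and 1.85.

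Il1b, the interleukin-1 of inflammasome-active myeloid cells, had 1398 CPM with control DCs, 4291 CPM with Ndrg2-KO DCs and 2390 CPM with blank hydrogel, a log2 ratio of 1.62. Within neutrophil-like cells its log2 ratio was 0.37, from 7103 to 9171 CPM, and within macrophage-like cells 1.49, from 386 to 1085 CPM. Il23a, the subunit that makes IL-23, a cytokine that sustains IL-17-producing lymphocytes, had 13.8, 103 and 34.2 CPM, a log2 ratio of 2.90 (2.68 to 3.13). Neutrophil-like cells held 121 CPM of Il23a with control DCs and 236 CPM with Ndrg2-KO DCs.

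Nos2, the inducible nitric oxide synthase of inflammatory macrophages, had 195 UMIs with control DCs, 3944 with Ndrg2-KO DCs and 783 with blank hydrogel. This is 15.1, 120 and 34.0 CPM, and a log2 ratio of 2.99 (2.78 to 3.21). Without the 5 cells with most UMIs of Nos2 in each library 65 and 3666 UMIs were left with control and Ndrg2-KO DCs, a log2 ratio of 4.47. Both classes showed the difference, with log2 ratios of 3.03 (2.30 to 3.88) in neutrophil-like and 3.73 (3.14 to 4.38) in macrophage-like cells. Tnf, a central inflammatory cytokine, had 406, 1192 and 594 CPM, and Ptgs2, the cyclooxygenase that makes prostaglandins at sites of inflammation, 608, 1576 and 687 CPM. Csf3, the growth factor that drives neutrophil production, had 55.9, 166 and 76.8 CPM. In each of these genes the wound with blank hydrogel lay between the others, and nearer to control DCs.

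Il10, the main anti-inflammatory cytokine of macrophages, had 162 CPM with control DCs, 157 CPM with Ndrg2-KO DCs and 109 CPM with blank hydrogel, a log2 ratio of -0.04 (-0.12 to 0.03). Within classes it was higher with Ndrg2-KO DCs, with log2 ratios of 0.34 (0.26 to 0.42) in macrophage-like cells and 2.64 (1.74 to 3.71) in neutrophil-like cells, where it had 10 and 385 UMIs. Macrophage markers were also higher in neutrophil-like cells, with log2 ratios from 0.20 (Csf1r) to 2.31 (C1qc). The part of macrophage RNA in the value of Il10 there was not tested.

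Of 12 CXC chemokines, 9 were higher with Ndrg2-KO DCs and 5 at least 2-fold (median log2 ratio 0.68). The median was 1.19 without the highest 6% of doublet scores, 1.27 with a Ptprc UMI required after drawing and 1.67 without the 5 cells with most UMIs of each gene. Cxcl2, a ligand of the neutrophil receptor CXCR2, had 8876 CPM with control DCs, 24988 CPM with Ndrg2-KO DCs and 13619 CPM with blank hydrogel. Its log2 ratio was 0.65 within neutrophil-like and 0.75 within macrophage-like cells. Cxcl3, a neighbouring gene with the same receptor, had 389, 1764 and 688 CPM, a log2 ratio of 2.18. Within neutrophil-like cells its ratio was 0.23 and within macrophage-like cells 2.58 (2.46 to 2.70), from 88.0 to 525 CPM. Cxcl14, a chemokine made mostly by epithelium and stroma, had 4.33, 24.4 and 11.0 CPM in immune cells, but was lower in the whole tissue, with 140 CPM with control DCs and 64.4 CPM with Ndrg2-KO DCs. Cxcl9, induced by interferon gamma to draw T cells, had 32.7, 15.8 and 30.3 CPM in immune cells, a log2 ratio of -1.05, and of -0.44 without the 5 cells with most UMIs of it. Its log2 ratio was -0.48 (-0.91 to -0.05) within macrophage-like cells, while neutrophil-like cells had 1 UMI of it with control DCs and 350 with Ndrg2-KO DCs.

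The promoters of Cxcl2 and Cxcl3 are shown because both chemokines are among the genes that NF-kB, the main transcription factor of inflammatory signalling, is known to switch on. The 150 bases before each RefSeq start (GRCm38.p6, plus strand) follow, with matches to the NF-kB consensus in capitals. They cover chr5:90903749-90903898 for Cxcl2 and chr5:90785951-90786100 for Cxcl3.
Cxcl2: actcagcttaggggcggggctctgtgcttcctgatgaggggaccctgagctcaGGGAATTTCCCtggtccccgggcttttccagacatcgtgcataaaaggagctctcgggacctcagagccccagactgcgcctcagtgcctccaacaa
Cxcl3: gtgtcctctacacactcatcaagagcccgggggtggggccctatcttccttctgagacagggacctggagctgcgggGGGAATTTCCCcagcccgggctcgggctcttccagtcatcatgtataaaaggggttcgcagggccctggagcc
Both windows hold the same run of capitals, which is 2 overlapping matches, starting 97 and 96 bases before the start of Cxcl2 and 73 and 72 bases before that of Cxcl3. Searched on both strands, the consensus was found in 4.60% of 32851 promoter windows of this length, in 4 of 10 of the CXC chemokines with a window (Cxcl1, Cxcl2, Cxcl3 and Cxcl10) and in 1 of 8 of the inflammatory cytokines (Il6). A match is a description of the letters and no measure of binding.

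CC chemokines were divided. Of 14 measured genes 4 were higher with Ndrg2-KO DCs and 10 lower, and 3 and 2 passed 2-fold, at a median log2 ratio of -0.31, which became 0.04 with the classes weighted. Neither of the 2 lower genes, Ccl1 and Ccl5, passed 2-fold without the 5 cells with most UMIs of each gene. For Ccl1 this left 5 and 7 UMIs with control and Ndrg2-KO DCs. Ccl3, Ccl4 and Ccl24 stayed at least 2-fold higher. Within neutrophil-like cells 10 of 11 CC chemokines were higher and 7 at least 2-fold, beside 11.4% of all genes there, and within macrophage-like cells 7 of 11 were higher. Neutrophil-like cells held 1.64e+06 UMIs with control DCs and 1.02e+07 with Ndrg2-KO DCs, so low genes pass the minimum more easily through the latter. Ccl24 had 0.608 and 20.1 CPM in them. Macrophage markers were higher there too, with log2 ratios from 0.20 (Csf1r) to 2.31 (C1qc). The part of macrophage RNA in these counts was not tested. Ccl3 and Ccl4, made by activated neutrophils and macrophages, had 849 and 1713 CPM with control DCs and 2692 and 4387 CPM with Ndrg2-KO DCs. Within neutrophil-like cells their log2 ratios were 0.67 and 0.13. Ccl24, an eotaxin of alternatively activated macrophages, had 21.5 CPM with control DCs, 99.7 CPM with Ndrg2-KO DCs and 16.8 CPM with blank hydrogel. Within macrophage-like cells it had 16.8 and 119 CPM with control and Ndrg2-KO DCs, a log2 ratio of 2.83 (2.56 to 3.11). Ccl5, a chemokine of T cells and mature DCs, was lower, with 335, 121 and 96.0 CPM, while macrophage-like cells held 53.5 and 52.0 CPM of it. Its log2 ratio in immune cells was -1.47, but -0.64 without the 5 cells with most UMIs of it in each library.

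Interferon-stimulated genes code for proteins that limit viral replication. Isg15, a ubiquitin-like member, had 89.8 CPM with control DCs, 240 CPM with Ndrg2-KO DCs and 155 CPM with blank hydrogel. Its log2 ratio was 1.44 within neutrophil-like and 0.81 within macrophage-like cells. Ifit1, which binds foreign RNA, had 9.28, 47.4 and 25.7 CPM and log2 ratios of 2.27 and 1.94 in the same classes.

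Macrophage genes did not move as 1 block. Arg1, the arginase that opposes Nos2 for arginine, was higher with Ndrg2-KO DCs, at 452 CPM with control DCs, 1151 CPM with Ndrg2-KO DCs and 888 CPM with blank hydrogel, and so was Spp1, which encodes the matrix cytokine osteopontin, at 1745, 4319 and 3063 CPM. Within macrophage-like cells the log2 ratios were 1.16 and 1.09. Within macrophage-like cells 6 of 12 resident-type and 6 of 12 alternative activation genes were higher and the others lower, at median log2 ratios of 0.07 and -0.01. Some lectins and receptors were lower over the immune cells. Mgl2, a galactose-binding lectin, had 85.3, 27.5 and 45.7 CPM, Clec10a, a closely related lectin, 395, 140 and 152 CPM, and Cd163, the haemoglobin scavenger receptor, 271, 113 and 117 CPM. Within macrophage-like cells these differences were smaller, with log2 ratios of -0.72, -0.96 and -0.61. Retnla, a marker of alternative activation, had 161, 59.4 and 80.2 CPM, and -0.76 within the class.

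Members of the Cd209 lectin cluster differed in direction. Cd209a, a lectin of monocyte-derived DCs, had 44.0 CPM with control DCs, 13.9 CPM with Ndrg2-KO DCs and 21.8 CPM with blank hydrogel. Cd209f and Cd209g, found on resident macrophages, had 118 and 49.05 CPM with control DCs, 205 and 93.7 CPM with Ndrg2-KO DCs and 44.98 and 18.8 CPM with blank hydrogel, log2 ratios of 0.79 and 0.93. Cd209d, of the same list of resident-type genes, had 125, 58.5 and 33.1 CPM, a log2 ratio of -1.09, and of -0.37 (-0.47 to -0.27) within macrophage-like cells. Within macrophage-like cells Cd209f had a log2 ratio of 1.43 (1.35 to 1.52), Cd209g one of 1.56 and Cd209a one of -1.31 (-1.56 to -1.06). MHC class II genes, which present antigen to T cells, were lower by little: Cd74, the invariant chain, had 3587, 2658 and 2400 CPM, and -0.22 within macrophage-like cells.

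Among the genes lower in immune cells was Fkbp5. It encodes FKBP51, a chaperone of steroid receptors that glucocorticoids induce. Fkbp5 (chr17:28399094-28517527, GRCm38) had 851 UMIs in 421 immune cells with control DCs, 506 UMIs in 398 cells with Ndrg2-KO DCs and 1209 UMIs in 679 cells with blank hydrogel, which is 65.8, 15.4 and 52.5 CPM. Here the wounds with control DCs and blank hydrogel were high and the wound with Ndrg2-KO DCs low, with a log2 ratio of -2.10 (-2.26 to -1.94). The ratio was -1.79 within neutrophil-like and -2.28 (-2.51 to -2.05) within macrophage-like cells. Zbtb16, a zinc finger factor that glucocorticoids also induce, had 9.98, 1.92 and 5.43 CPM in immune cells and 771, 231 and 534 UMIs in the whole tissue.

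Vcam1, an adhesion molecule that binds leukocyte integrins, had 111 CPM in immune cells with control DCs, 28.9 CPM with Ndrg2-KO DCs and 35.4 CPM with blank hydrogel, a log2 ratio of -1.94 and of -1.82 within macrophage-like cells. Vdr, the vitamin D receptor, had 20.0, 5.94 and 10.6 CPM, and -1.05 (-1.50 to -0.60) in that class. Sult1a1, a sulfotransferase for phenols, had 26.8, 7.73 and 12.5 CPM. Mmp19, a metalloproteinase of macrophages, had 589, 202 and 331 CPM, and -1.31 within macrophage-like cells. In these 4 genes blank hydrogel lay between the other wounds.

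Of 13 proteases and inhibitors, 9 were higher and 4, Mmp19, Mmp2, Timp2 and Mmp14, lower. The median log2 ratio was 0.43, and 0.00 without cells with at least 3 fibroblast markers. Mmp13, a collagenase, had 36.2 CPM with control DCs, 235 CPM with Ndrg2-KO DCs and 33.8 CPM with blank hydrogel, a log2 ratio of 2.70 and of 2.23 (2.03 to 2.44) within macrophage-like cells. Mmp9, the gelatinase of neutrophil granules, had 53.2, 163 and 230 CPM in immune cells but 394 and 349 CPM within neutrophil-like cells. Among growth factors, Ereg, an EGF receptor ligand, had 49, 1729 and 1076 UMIs in 17, 198 and 82 cells, a log2 ratio of 3.80 (3.39 to 4.24), but one of 0.01 in the whole tissue. Vegfa, the main vessel growth factor, had 242, 181 and 164 CPM, Igf1 121, 85.7 and 80.4 CPM, and Tgfb1, which drives matrix production, 257, 254 and 265 CPM.

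The inflammatory lists were also higher within the classes, at smaller medians. In neutrophil-like cells (427 cells with control DCs, 2554 with Ndrg2-KO DCs) 708 of 6355 genes were at least 2-fold higher (11.1%) and 105 at least 2-fold lower (1.65%). In macrophage-like cells (507 and 893 cells) 275 of 9715 were at least 2-fold higher (2.83%) and 54 at least 2-fold lower (0.556%). The sums with control and Ndrg2-KO DCs were 1.64e+06 and 1.02e+07 UMIs in neutrophil-like cells. In macrophage-like cells they were 7.16e+06 and 1.19e+07 UMIs. A low gene therefore passes the minimum more easily through the sum with Ndrg2-KO DCs, most of all in neutrophil-like cells, and counts of genes within the classes carry no test. All 12 inflammatory genes measured in neutrophil-like cells were higher, with a median log2 ratio of 0.89 against 0.14 over all genes. In macrophage-like cells 11 of 11 were higher, with a median of 1.06 against 0.04. Neutrophil activation genes had medians of 0.64 and 0.50, with 12 of 12 higher in each class.

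RNA of 1 class was also found in the other, and more of it with Ndrg2-KO DCs. The 8 neutrophil markers summed to 351 CPM in macrophage-like cells with control DCs, 2046 CPM with Ndrg2-KO DCs and 994 CPM with blank hydrogel. This is 0.252%, 1.81% and 0.892% of their level in neutrophil-like cells. The median number of neutrophil markers in a macrophage-like cell was 0 in each library. Beside this, macrophage-like cells held 11.7% of the neutrophil-like level of Il1a with Ndrg2-KO DCs, 11.8% of that of Il1b, 17.7% of that of Cxcl3 and 59.5% of that of Nos2. For Il23a the share was 6.86%. With control DCs these shares were 8.15%, 5.43%, 3.48%, 36.7% and 1.61%. The 8 neutrophil markers taken singly lay between 0.860 and 24.4% (median 2.53%) with Ndrg2-KO DCs and between 0.175 and 6.27% (median 0.285%) with control DCs. With Ndrg2-KO DCs the highest was that of Mmp9 and the next that of Csf3r, at 9.90%, so Il1a, Il1b and Cxcl3 lay above 7 of the 8 markers and Nos2 above all 8. With control DCs Il1a and Nos2 lay above all 8. The part of neutrophil RNA in these levels was not tested. The 8 macrophage markers in neutrophil-like cells summed to 376, 655 and 563 CPM, which is 3.48%, 5.40% and 5.95% of their level in macrophage-like cells. Taken singly they lay between 0.575 and 26.8% (median 1.69%) with control DCs and between 2.29 and 30.35% (median 4.40%) with Ndrg2-KO DCs. Their log2 ratios there ran from 0.20 (Csf1r) to 2.31 (C1qc). The higher levels of resident-type macrophage genes (8 of 8), of Il10, of CC chemokines and of Arg1 in neutrophil-like cells (15.8, 337 and 165 CPM for Arg1) stand beside that difference. Its part in them was not tested. S100a8 at 1000 UMIs was found in 0.403% of fibroblast-like cells with control DCs and 7.37% with Ndrg2-KO DCs, a class that should lack it.

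**Figure D3:**
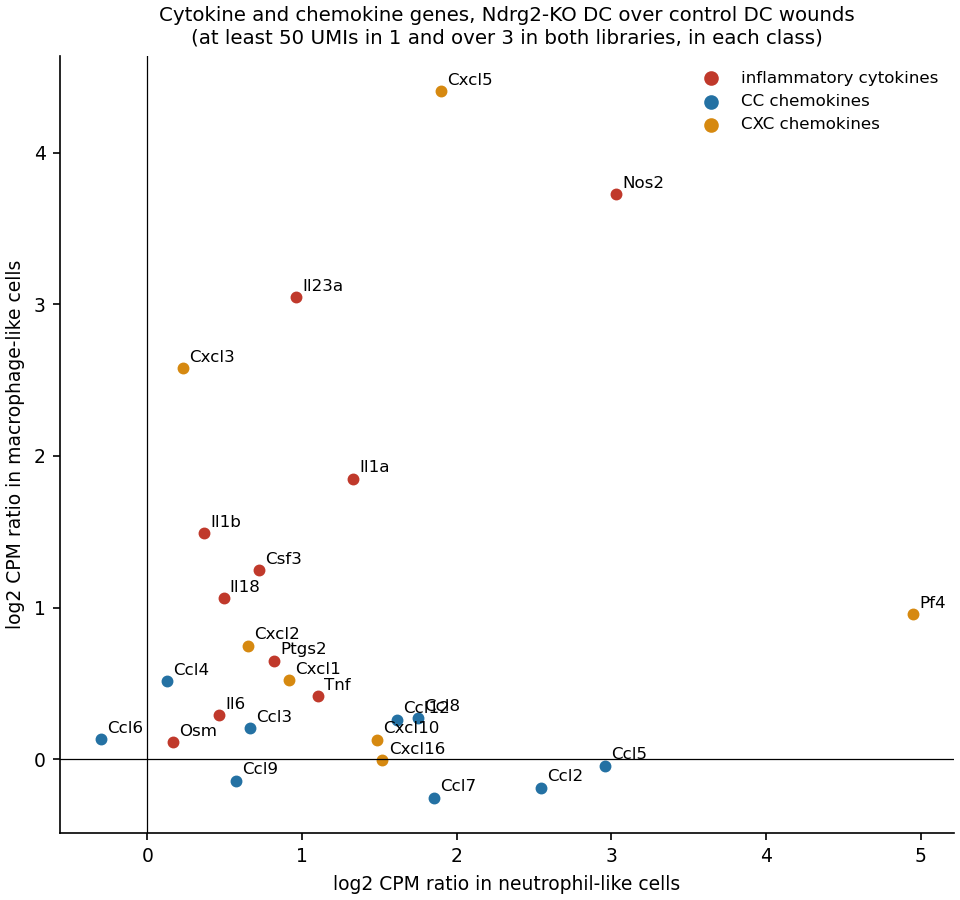
Log2 CPM ratio of Ndrg2-KO over control DC wounds for cytokine and chemokine genes within neutrophil-like cells (horizontal) and macrophage-like cells (vertical), for genes with at least 50 UMIs in 1 library and over 3 in both. Inflammatory cytokines are red, CC chemokines blue and CXC chemokines amber. Nos2 lies high in both (3.03 and 3.73), Cxcl3 almost only on the vertical axis (0.23 and 2.58) and Ccl5 only on the horizontal (2.96 and -0.04).

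Several of the largest ratios in immune cells rested on few cells. Gzmd, Gzme, Gzmf and Gzmg encode granzymes, serine proteases of activated cytotoxic lymphocytes. Gzmf had 12 UMIs with control DCs, 3405 with Ndrg2-KO DCs and 475 with blank hydrogel, and Gzme 4, 749 and 53. Gzmg and Gzmd had 0 UMIs with control DCs, 2556 and 2145 with Ndrg2-KO DCs and 13 and 82 with blank hydrogel. Only 3 of the 5681 cells with Ndrg2-KO DCs had UMIs of at least 2 of these genes, and they held 97.8% of the Gzmf and 99.6% of the Gzmg UMIs. By their markers 1 was T cell-like and 2 were NK cell-like, and all 3 carried Prf1, the pore-forming perforin, and Gzmb. Without the 5 cells with most UMIs of each gene, another alternative added after the data were seen, 12 UMIs of Gzmf with Ndrg2-KO DCs and 0 with control DCs remained, a log2 ratio of at least 0.65, and the other granzymes had too few UMIs for a value.

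The promoters of these granzymes are shown to make their likeness visible, since they are similar genes that lie close together on chromosome 14. How reads were split among them was not tested. The 150 bases before each RefSeq start (GRCm38.p6, minus strand) follow, and the capitals mark the longest run shared by all 4, of 36 bases. They cover chr14:56132594-56132743 for Gzmd, chr14:56120626-56120775 for Gzme, chr14:56211408-56211557 for Gzmf and chr14:56159580-56159729 for Gzmg.
Gzmd: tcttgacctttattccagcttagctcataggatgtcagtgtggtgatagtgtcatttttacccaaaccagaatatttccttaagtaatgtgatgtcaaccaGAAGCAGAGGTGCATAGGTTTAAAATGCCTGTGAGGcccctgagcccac
Gzme: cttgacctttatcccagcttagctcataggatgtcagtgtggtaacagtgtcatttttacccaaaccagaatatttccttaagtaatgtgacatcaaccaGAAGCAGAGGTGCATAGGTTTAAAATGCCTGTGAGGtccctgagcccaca
Gzmf: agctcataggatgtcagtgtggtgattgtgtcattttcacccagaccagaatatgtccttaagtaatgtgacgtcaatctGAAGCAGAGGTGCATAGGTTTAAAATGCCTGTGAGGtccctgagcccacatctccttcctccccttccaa
Gzmg: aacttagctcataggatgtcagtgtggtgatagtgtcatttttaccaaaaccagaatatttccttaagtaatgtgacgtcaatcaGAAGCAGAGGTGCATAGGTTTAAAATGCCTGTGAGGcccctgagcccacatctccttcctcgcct
Over the 6 pairs of genes, identical aligned bases made up 80.7 to 95.3% of the window length and 82.9 to 90.04% of the longer transcript. The shared run starts 49 bases before the start in Gzmd, 50 in Gzme, 70 in Gzmf and 65 in Gzmg. The windows are thus offset, and bases without a partner lower these values. None of the 4 windows held the NF-kB consensus.

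Other leading genes were also carried by single cells. Igkc, the antibody light chain of plasma cells, had 137 UMIs with control DCs and 11924 with Ndrg2-KO DCs in immune cells, of which 11812 lay in 5 cells, and its log2 ratio was -1.12 without the highest 6% of doublet scores. Jchain, which joins antibody units, had 3 and 933 UMIs, of which 930 lay in 5 cells. In the whole tissue blank hydrogel had 5707 Igkc UMIs, of which 1.3% lay in cells with a Ptprc UMI. Krt14, a keratin of the epidermis, had 11 and 956 UMIs in immune cells, 913 of them in 1 cell, and in the whole tissue its log2 ratio was -0.23. Il22 and Il17a, cytokines of gamma delta and Th17 cells that act on epidermis, had 345 and 303 immune UMIs with control DCs against 0 and 4 with Ndrg2-KO DCs. For Il22 this is at least 292-fold lower with 3 UMIs in place of 0, but 1 cell with control DCs held 342 of the 345, and 1 cell 296 of the Il17a UMIs. In the whole tissue Il22 had 11.7 CPM with control DCs and 7.96 CPM with Ndrg2-KO DCs, and Il17a 10.2 and 8.51 CPM, since nearly all UMIs of both with Ndrg2-KO DCs lay in cells without a Ptprc UMI. Cells with either cytokine numbered 9 of 1948, 5 of 5681 and 9 of 3403.

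Il1f6 was spread over more cells. Il1f6, which encodes the interleukin-36 alpha of skin inflammation, had 5 UMIs in 4 cells with control DCs, 276 UMIs in 114 cells with Ndrg2-KO DCs and 44 UMIs in 23 cells with blank hydrogel, a log2 ratio of 4.44 (3.20 to 6.08). Without the 5 cells highest for it 0 and 205 UMIs remained with control and Ndrg2-KO DCs, a log2 ratio of at least 4.75 with 3 UMIs in place of 0. Genes of secondary granules, made by immature neutrophils in the marrow, were carried by fewer. Ngp, neutrophilic granule protein, had 34, 1109 and 32 UMIs in 10, 78 and 16 cells, and Ltf, lactoferrin, 15, 338 and 52 UMIs in 8, 72 and 40 cells. With Ndrg2-KO DCs the 5 highest cells held 955 of the Ngp UMIs, 86.1%, and 76.9% of those of Ltf and 76.8% of those of Camp. Camp, the cathelicidin precursor, had 3, 250 and 36 UMIs and a log2 ratio of 5.04 (3.47 to 7.32). Without the 5 cells highest for it 0 and 58 UMIs remained, a log2 ratio of at least 2.93. Ctsg, a primary granule protease, had 0, 184 and 0 UMIs, all in 4 cells, which is at least 24.1-fold higher. Within neutrophil-like cells 4 of 8 granule genes were higher and 4, Mmp8, Cd177, Lcn2 and Mmp9, lower, and the granule list summed to 2050 CPM with control DCs, 1670 CPM with Ndrg2-KO DCs and 1761 CPM with blank hydrogel. Ereg had a log2 ratio of 5.47 without its 5 highest cells, where the loss weighs more on the 17 cells with control DCs.

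Of the remaining genes that led the lower side, Hist1h1b, a histone of dividing cells, and H19, a fetal non-coding RNA, had log2 ratios of -1.70 and -1.67 but -0.24 and -0.43 without the 5 highest cells. Igfbp5, an IGF binding protein, had a log2 ratio of -1.81, yet most of its UMIs in the whole tissue were those of fibroblast-like cells, and without cells with 3 fibroblast markers its ratio was 0.81. Tmsb15a, a thymosin, had 2 and 388 UMIs, but 0 and 5 without the 5 highest cells of each library, and Apol7c, an apolipoprotein L, 3 and 319 UMIs, but 0 and 15 without the 5 highest cells, a log2 ratio of at least 0.98.

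**Figure D4:**
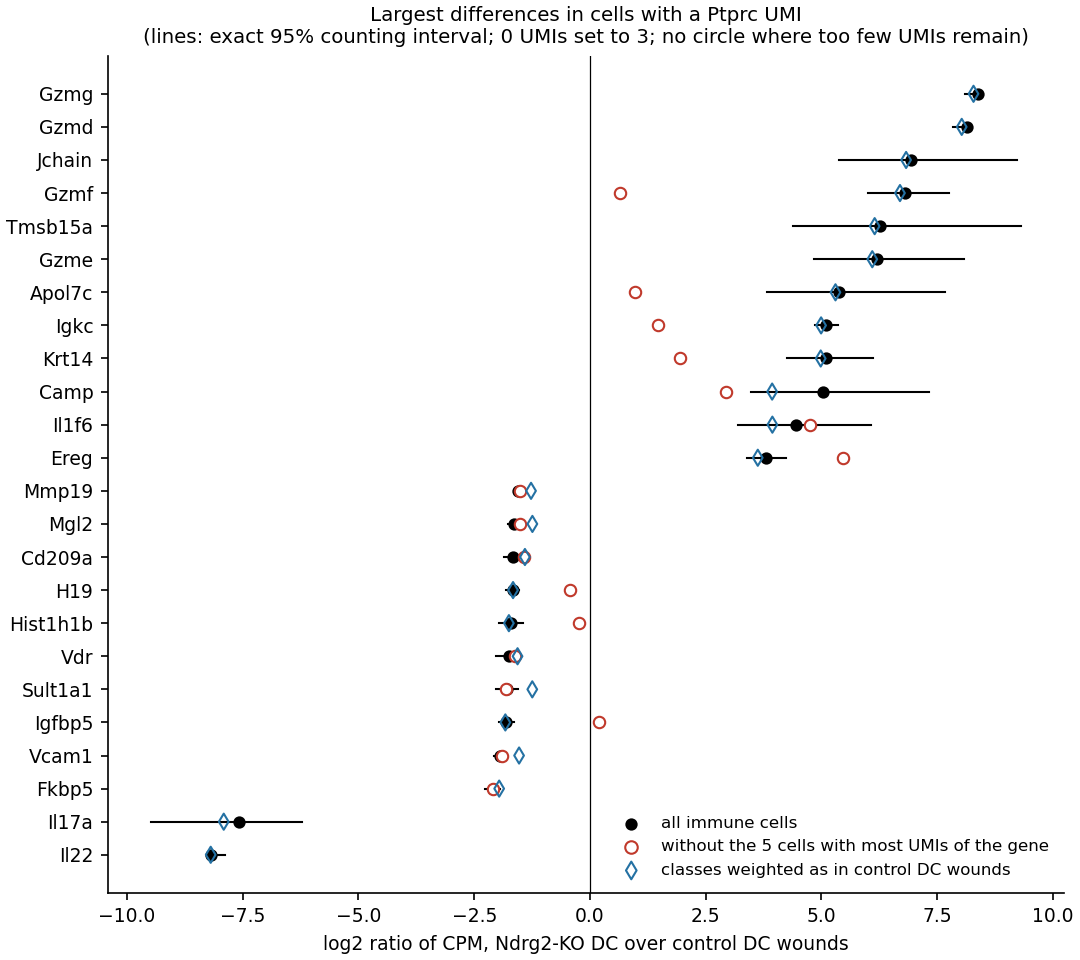
Log2 CPM ratio of Ndrg2-KO over control DC wounds in cells with a Ptprc UMI for the 12 largest differences each way, of genes reaching 200 UMIs in either sum. Black points carry exact 95% counting intervals, red circles leave out the 5 cells with most UMIs of the gene and blue diamonds weight the classes as with control DCs. Circles of Gzmf, Apol7c, Camp and Il1f6 are lower bounds, as 0 UMIs remained with control DCs. Igfbp5 moves to 0.20 without 5 cells, while Fkbp5 keeps all its symbols near -2.10.

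In the whole tissue 587 of 13358 genes were at least 2-fold higher with Ndrg2-KO DCs (4.39%) and 831 at least 2-fold lower (6.22%). The median log2 ratio over 10297 genes was -0.14, and with it set to 0 the counts were 762 and 579. All 14 collagen and matrix genes were lower and 10 at least 2-fold, at a median log2 ratio of -1.11 and a summed level of 59227 CPM with control DCs, 27227 CPM with Ndrg2-KO DCs and 27639 CPM with blank hydrogel. The share of fibroblast-like cells was lower as well, and its part in these levels was not tested. Of 10 angiogenic endothelium genes, 9 were lower and 3 at least 2-fold, at a median of -0.63, which was 0.08 without the highest 6% of doublet scores. All 12 neutrophil activation genes were higher, 10 of them at least 2-fold, with a median of 1.93. MHC class II genes, lower within immune cells, were higher over the tissue in 7 of 8, with a median of 0.26, which was -0.22 with the mean over cells.

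On the higher side of the whole tissue, Gzmg, Gzmd, Gzmf, Tmsb15a, Gzme, Jchain, Igkc and Apol7c led as in immune cells. For Apol7c the tissue log2 ratio was 4.99, and at least 2.93 without the 5 highest cells, which left 0 and 38 UMIs. Ngp had 34 UMIs with control DCs, 1128 with Ndrg2-KO DCs and 37 with blank hydrogel, and Ltf 16, 366 and 63. Ptpn5, a tyrosine phosphatase, and Pgr, the progesterone receptor, had 17, 604 and 15 and 19, 560 and 10 UMIs, and with Ndrg2-KO DCs 97.4% and 98.9% of these lay in fibroblast-like cells. On the lower side, Cfd, the adipocyte complement factor, had 1702, 17 and 11 UMIs, and Car3, a carbonic anhydrase of fat and muscle, was lower too, but both turned to higher without their 5 highest cells, with 2 and 12 UMIs of Cfd and 7 and 29 of Car3 left, log2 ratios of 1.85 and 1.32. Cxcl13, the chemokine that draws B cells, had 7128, 2118 and 1882 UMIs, a log2 ratio of -2.48. Ccl1, a chemokine of activated T cells and mast cells, had 211, 60 and 3 UMIs, a log2 ratio of -2.54, and of -0.92 without the 5 highest cells. Hmcn1, Galnt15, Zim1, Col6a5, Fmo2, Cpxm2 and Capn6 completed the 12 lowest, and their log2 ratios under all alternatives with a value stayed between -4.64 and -2.08.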

How the data were processed

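The authors deposited counts of UMIs per gene and cell barcode from 10X Genomics 3' libraries, made with Cell Ranger (the wound files' headers give version 6.0.0), without normalization and with called cells only. The paper gives the mm10 genome, and the submitters' processing notes name mm9 and Seurat 3.1.1. Gene positions were taken from GENCODE M21 (GRCm38) and promoters from RefSeq (GRCm38.p6).

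Barcodes were filtered as described in the report, UMIs were summed over cells and scaled to 1000000 (CPM). Exact Poisson, Clopper-Pearson and conditional binomial intervals were computed with SciPy 1.17.1, and a sum of 0 was replaced by 3 UMIs and reported as a bound. Folds were counted for genes with 50 or more UMIs in both sums together. Shares used cells drawn to 1000 UMIs. Class levels were summed over all cells of a class, with or without a Ptprc UMI. Doublets were kept: Scrublet (scanpy 1.11.5) marked at most 0.873% of a library by its own threshold, and whether it missed doublets was not tested. An alternative left out the highest 6% of scores. The interval code was checked on simulated counts that were drawn independently, as the intervals assume. The check therefore bears on the code and not on UMIs concentrated in few cells.

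The genes named are the 12 highest and 12 lowest ratios among genes with 200 UMIs or more in either sum, in immune cells and in the whole tissue, without mitochondrial, ribosomal protein, predicted and, in the tissue, fibroblast list genes, plus Ndrg2 and members of 21 function lists. Of each list those 2 with most UMIs and those 2 with the largest differences were to be named, and others are named for their known role. Members, markers and lists were chosen with earlier results of these data known. Single genes of fibroblasts were left aside except where this rule named them. Alternatives covered the cell filters, scaling, depth of drawing, number of markers, the definition of immune cells and the gene minimum.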

Additional observations from a re-analysis of the deposited data

How the results depend on the processing

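No paired analysis was possible because each condition is 1 library. Leaving out a replicate was not possible either, so the alternatives bear on processing alone. Differences in the share of cells with a Ptprc UMI and of neutrophil-like, macrophage-like and fibroblast-like cells kept their sign in every alternative run. Other types were compared only without drawing. There the order of monocyte-like cells turned, from 2.91% with control DCs and 3.04% with Ndrg2-KO DCs to 33.4% and 24.1%. The neutrophil-like difference of 25.1 percentage points was 20.2 with a minimum of 300 UMIs in place of genes and also with all barcodes, 21.3 and 27.5 with cells drawn to 500 and 2000 UMIs, 35.1 without drawing, and 32.1 and 17.0 with at least 2 and 4 markers. That of macrophage-like cells (-10.1) was -7.52 with 300 UMIs, -7.19 with all barcodes and -7.12 at 500 UMIs. That of fibroblast-like cells (-16.3) was -12.5, -12.3 and, without drawing, -24.9. The share with a Ptprc UMI (7.82) gave 12.5 at 2000 UMIs and 11.2 without drawing. In immune cells, the 374 genes higher and 270 lower became 535 and 127 with median-ratio scaling, 269 and 961 with the mean over cells, 202 and 105 with a minimum of 200 UMIs, 223 and 361 with a Ptprc UMI required after drawing, and 738 and 133 without the 5 cells highest for a gene. The last takes a larger part of the smaller library by construction. In the whole tissue, 587 and 831 became 326 and 2414 with the mean over cells and 391 and 482 with a minimum of 200 UMIs, which tests fewer genes. The mean over cells gives shallow cells the same weight as deep ones. Reversed directions were found for Igkc in immune cells (-1.12 without the highest 6% of doublet scores, -2.24 with Ptprc after drawing) and in tissue (-0.35), Jchain in tissue (-0.40), Igfbp5 (0.81 without cells with 3 fibroblast markers, 0.20 without 5 cells), Cfd (1.03 with under 5% mitochondrial UMIs, 1.85 without 5 cells) and Car3 (0.81, 0.39 without the highest 6% and 1.32), and beyond the removal of few cells the cause was not tested. In 15 combinations of gene and alternative too few UMIs remained for a value. Cell number limits rare types, as the DC-like share with control DCs has an interval from 0.0845% to 0.606%.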

Other observations

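Of 12 cell cycle genes, 6 were higher, 1 of them at least 2-fold, and 6 lower with Ndrg2-KO DCs over the immune cells. Their median log2 ratio was -0.03, but -0.56 with the mean over cells and -0.49 with a Ptprc UMI required after drawing. Within macrophage-like cells 9 of 10 were higher and 6 at least 2-fold, beside 2.76% of all genes there, at a median of 1.28, on a summed level of 188 CPM with control DCs and 204 CPM with Ndrg2-KO DCs. Of 14 immediate early and heat shock genes, which respond to tissue dissociation, none passed 2-fold and 10 were lower, at a median of -0.18, with summed levels of 11796 and 11505 CPM. Of 12 complement genes none passed 2-fold either, and 9 were lower.

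Mast cells, the granular sentinels of the skin, numbered 2 mast cell-like cells with control DCs, 13 with Ndrg2-KO DCs and 1 with blank hydrogel, which is 0.104% (0.0126 to 0.375), 0.233% (0.124 to 0.398) and 0.0300% (0.000758 to 0.167). All 3 intervals overlapped, and no order is read from them. Of 8 mast cell markers 5 were higher and 3, Mcpt4, Tpsb2 and Kit, lower with Ndrg2-KO DCs, at a median log2 ratio of 0.07. Skeletal muscle genes were at 9.27, 20.9 and 86.7 CPM summed over 8 markers, highest with blank hydrogel.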
